A study of Mus musculus with 6 samples.

Results

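Receptors coupled to Gq proteins signal through a short chain of proteins, and 9 genes of that chain were followed here: the Gq family alpha subunits Gnaq and Gna11, the phospholipases C beta Plcb1, Plcb2, Plcb3 and Plcb4, and the protein kinases C Prkca, Prkcb and Prkce. The genes were chosen by name for their place in the pathway, with earlier results of these data known. All 9 were measured, among 22180 genes tested in all, each by the only probe set that named it and no other gene.

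Gene expression was measured on Affymetrix arrays with total RNA of the hippocampus of male C57BL/6J-background mice aged 56 days (P56). One group of 3 samples was wild type for Trpc4, and the other group of 3 carried a deletion of Trpc4, a receptor-operated cation channel gene, with no other allele or treatment named. The labels leave unsaid which part of Trpc4 is missing, whether the deletion is in all cells, or whether each sample is 1 animal, so the p-values rest on sample-to-sample spread that may be partly technical. All values are log2 signals after RMA, a method that corrects the background and puts the arrays on a common scale, and all differences are knockout minus wild type.

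In a Gq-coupled cell the receptor loads the alpha subunit with GTP, and the alpha subunit switches on phospholipase C beta. That enzyme splits the membrane lipid PIP2 into IP3, which releases calcium from internal stores, and diacylglycerol, which recruits several classes of protein kinase C to the membrane. TRPC4 channels open downstream of the same receptors, and in hippocampal neurons this route serves metabotropic glutamate and muscarinic acetylcholine signalling.

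The arrays were alike in scale, with medians of 4.73 to 4.75 and Pearson's r of 0.985 to 0.988 between any pair across probe sets, which are not independent replicates. Trpc4 itself had signals of 8.06, 8.23 and 8.06 in wild type and 7.39, 7.55 and 7.31 in knockout, lower in every knockout sample. The knockout signal was 61.5% of wild type (95% interval 52.9% to 71.5%), with a limma p of 8.87e-05 and, over all genes, an adjusted p of 0.738, which became 0.0378 with trend and robust variance. Whether its probe set lies inside the deleted part is not known, so this does not check the genotype. All measured markers of dentate granule cells (8), CA1 (5) and CA3 (7) had mean signals above 4.72, the median of all probe sets. So did 12978 of the 22180 genes tested, all 12 endothelial and mural markers, all 10 astrocyte markers and 6 of 8 thalamus markers. All 15 measured markers of oligodendrocytes and myelin had lower means in knockout. Of these, 12 had an unadjusted limma p under 0.05 and 11 had groups that did not overlap, beside 5.75% and 10.9% of all genes, and 0 passed the adjusted threshold (lowest adjusted p 0.849). Their summed linear signal was 5898 to 6203 in wild type and 3792 to 5565 in knockout. Their mean deviation from each gene's mean over the 6 arrays was 0.15 to 0.24 in wild type. In knockout replicates 1 to 3 it was -0.20, -0.47 and 0.08, so replicate 3 was not below the 6-array mean. Interneuron markers were lower for 10 of 10 genes (sums of 3033 to 3519 against 2823 to 3173), and choroid plexus markers for 7 of 8 (344 to 378 against 286 to 347). The choroid mean deviations were 0.05 to 0.10 in wild type and -0.24, -0.04 and 0.06 in knockout replicates 1 to 3. Dentate markers were higher for 8 of 8 (1062 to 1288 against 1237 to 1345). Their mean deviations were 0.09, -0.22 and -0.14 in wild-type replicates 1 to 3 and 0.10, 0.13 and 0.04 in knockout. CA1 markers were higher for 2 and lower for 3, and groups did not overlap for 3. CA3 markers were higher for 4 and lower for 3, and groups did not overlap for 2. None of these markers passed the adjusted threshold, and only 4 of the 8 choroid plexus markers had means above the median of all probe sets. The part of these cell types in the values that follow was not tested, and in tissue RNA fewer cells of a type cannot be told apart from less RNA per cell.

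None of the 9 genes differed between genotypes past the threshold, an adjusted p of 0.05 over all genes in limma, where 0% of the 22180 genes were called. The lowest adjusted p among the 9 was 0.857. Of the 9, 0 had an unadjusted p below 0.05, beside 5.75% of all genes, and every 95% interval included no change. Under other settings Plcb3 or Gna11 came under an unadjusted p of 0.05, as given with each gene. The signals of 6 genes were higher in knockout on average and those of 3 lower, beside 54.9% higher over all genes. The median difference was 0.03, and over all genes 0.01. Leaving out a wild-type sample lowered it to 0.0087 (replicate 2) or raised it to 0.06 (replicate 1), and leaving out a knockout sample raised it to 0.04 (replicate 1) or 0.09 (replicate 2). The genotypes did not overlap for 3 of 9 genes, Gna11 and Plcb1 (higher in knockout) and Plcb3 (lower), beside 10.9% of all genes (6.41% higher and 4.45% lower). The count was 2 with median centring, and 5 without knockout replicate 3, where 21.8% of all genes did not overlap. In this fit the largest change that the intervals allow for any of the 9 was from 76.9% of the wild-type signal (Plcb3) to 128% (Gna11).

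**Figure D1:**
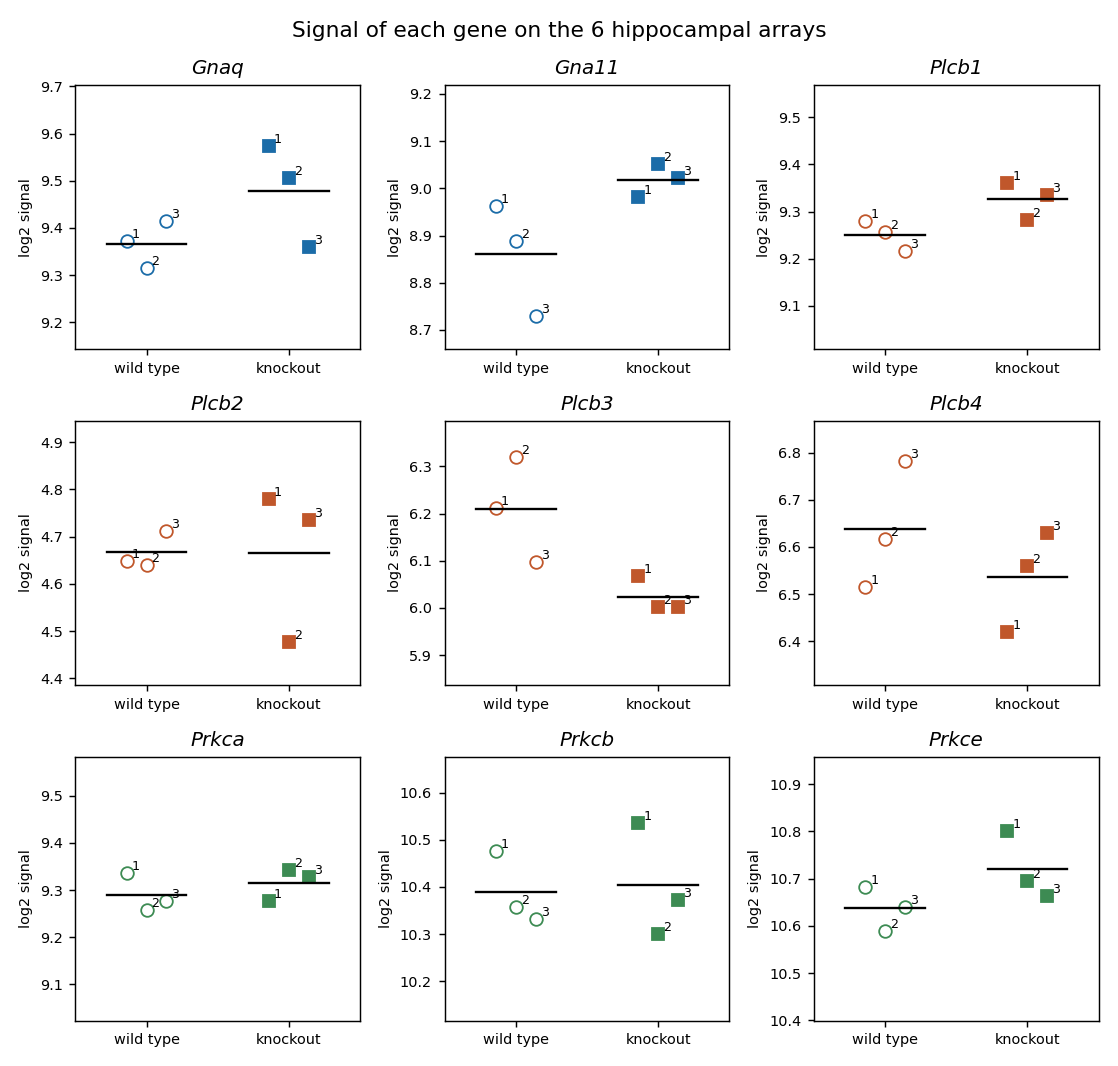
Log2 signal of each gene in wild-type (open circles) and Trpc4 knockout (filled squares) hippocampus, with replicate numbers beside the points and a bar at each group mean. Each panel spans the same range of log2 units around its own centre, and the groups are apart only for Gna11, Plcb1 and Plcb3.

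Both Gq family alpha subunits had higher mean signals in knockout, with intervals that include no change. Gna11, which encodes a close relative of Gαq with the same effectors, was measured by probe set 17243392. It gave 8.96, 8.89 and 8.73 in wild-type replicates 1 to 3 and 8.98, 9.05 and 9.02 in knockout replicates 1 to 3. Every knockout value lay above every wild-type value, but only 0.02 separated the nearest values, and the wild-type samples spread more widely than the knockout samples. The means were 8.86 ± 0.12 and 9.02 ± 0.03 (SD, n = 3 each). The difference of 0.16 had a standard error of 0.08 and a 95% interval of -0.04 to 0.36, so the knockout signal was 112% of wild type, between 97.3% and 128% (limma p 0.102, adjusted p 0.874). An exact two-sided permutation test gave p = 0.1, which is the lowest value possible with 3 samples in each group. With trend and robust variance the unadjusted limma p was 0.0301. Without wild-type replicate 3, the lowest value, the difference was 0.09.

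Gnaq, which encodes Gαq, the alpha subunit that gives the family its name, was measured by probe set 17357959. Its signals were 9.37, 9.31 and 9.41 in wild type and 9.57, 9.51 and 9.36 in knockout. Knockout replicates 1 and 2 were above all wild-type samples, and knockout replicate 3 lay within their range. The knockout mean was 0.11 higher (standard error 0.08), with an interval of -0.08 to 0.31, or 108% of wild type (94.4% to 124%), at an adjusted limma p of 0.905. Leaving out knockout replicate 3 gave 0.17, and leaving out knockout replicate 1 gave 0.07. The gap between Gnaq and Gna11 within an array changed by -0.05 between genotypes, and an exact permutation test of this change gave p = 0.7. The probe sequences were not used here, so signal shared between such close relatives was not tested.

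Gnaq and Gna11 each lie beside another gene of the Gq class in the mouse reference, Gna14 next to Gnaq and Gna15 next to Gna11. Gna14 and Gna15 encode alpha subunits of more restricted expression, and neither differed past the threshold. Gna14, at a mean of 4.79, differed by 0.0041 with an interval of -0.39 to 0.39, and its 3 knockout samples spread from 4.39 to 5.01. Gna15 differed by -0.11 with an interval of -0.40 to 0.18, at a mean below the median of all probe sets. Of 9 other alpha subunit genes (the Gs, Gi/o and G12/13 classes), 7 were higher and 2 lower (median 0.04), beside 54.9% higher over all genes. Among them Gnas was dim, with means of 4.76 in wild type and 4.80 in knockout, near the median of all probe sets (4.72). Gnai2, Gnao1 and Gnaz had groups that did not overlap, all higher in knockout. This is 3 of 9, beside 10.9% of all genes in either direction and 6.41% higher. At an unadjusted limma p under 0.05 there was 1 of the 9, Gnaz (p 0.0448, adjusted p 0.853), beside 5.75% of all genes.

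The phospholipase C beta genes went both ways. Plcb3, an isoform found in many tissues, had the smallest unadjusted p of the 9 genes, and its signal was lower in knockout. Probe set 17362156 gave 6.21, 6.32 and 6.10 in wild type and 6.07, 6.00 and 6.00 in knockout. The knockout samples lay close together below all wild-type samples, the nearest of which, wild-type replicate 3, was 0.03 away. The means were 6.21 ± 0.11 and 6.02 ± 0.04 (SD, n = 3 each), and the difference of -0.19 had a standard error of 0.08 and an interval of -0.38 to 0.0077. The knockout signal was 87.9% of wild type, between 76.9% and 101%, at p 0.0576 and adjusted p 0.857 (limma). An exact permutation test gave p = 0.1. Leaving out single samples moved the difference between -0.24 and -0.13. The unadjusted limma p was 0.0466 with quantile normalization, 0.0374 with only genes above the median of all probe sets and 0.0291 without wild-type replicate 3.

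Plcb1, the main isoform of cortical and hippocampal pyramidal neurons, was measured by probe set 17376685. Its signals were 9.28, 9.26 and 9.22 in wild type and 9.36, 9.28 and 9.33 in knockout. The groups did not overlap, but the highest wild-type and the lowest knockout value were only 0.0021 apart. The separation was lost with median centring of the arrays. The difference was 0.07 with an interval of -0.09 to 0.24, 105% of wild type (94.0% to 118%), at an adjusted limma p of 0.926. Plcb1 varied least of the 9 genes, with a pooled SD of 0.04 within genotypes, lower than in all but 4.26% of genes with signals above the median.

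Plcb4, an isoform best known from cerebellar Purkinje cells, thalamus and retina, lies next to Plcb1 in the reference. Probe set 17376728 gave 6.52, 6.62 and 6.78 in wild type and 6.42, 6.56 and 6.63 in knockout. The groups overlapped, with knockout replicate 1 the lowest and wild-type replicate 3 the highest of the 6. The difference of -0.10 had an interval of -0.33 to 0.13, 93.2% of wild type (79.5% to 109%), at an adjusted limma p of 0.928. It hung on single samples, at -0.03 without wild-type replicate 3 and -0.16 without wild-type replicate 1. Thalamus markers, of which 8 were measured, had summed signals of 423 to 442 in wild type and 433 to 443 in knockout, with 5 higher and 3 lower.

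Plcb2, an isoform of blood cells and taste cells, was the only gene of the 9 to fall under the median of all probe sets, at a mean of 4.67. Probe set 17389740 gave 4.65, 4.64 and 4.71 in wild type and 4.78, 4.48 and 4.74 in knockout. Knockout replicate 2 was the lowest of the 6 and knockout replicates 1 and 3 the highest. The difference was -0.0024 with an interval of -0.23 to 0.22, or 99.8% of wild type (85.3% to 117%), and became 0.09 without knockout replicate 2. No background signal was used here, so whether this probe set detects transcript was not tested. Microglia markers gave sums of 1305 to 1322 in wild type and 1184 to 1323 in knockout. All 7 measured blood cell markers, of 12 listed, had means below the median of all probe sets. The listed haemoglobin genes and Alas2 were not among those measured, so blood content was not tested.

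**Figure D2:**
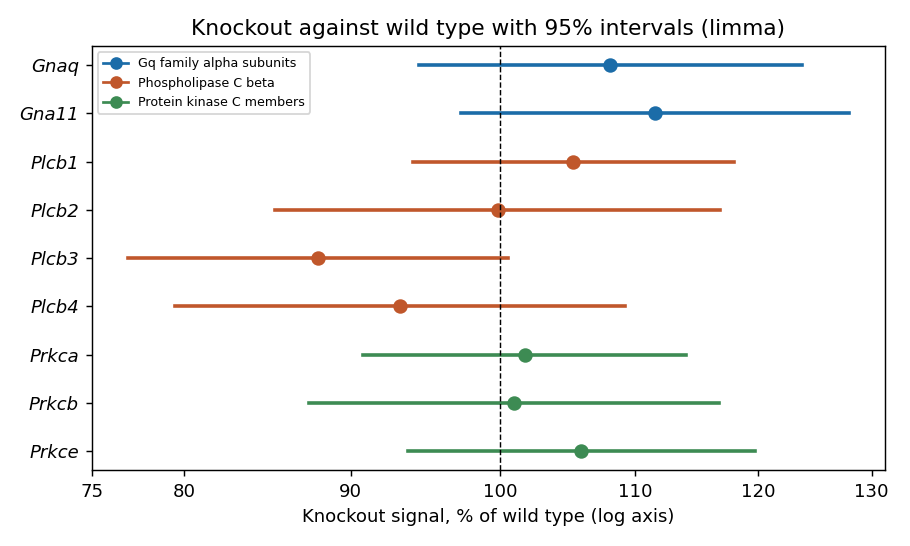
Knockout signal as a percentage of wild type for each gene (points) with the 95% interval of the limma fit (lines), n = 3 samples per genotype, on a log axis with a dashed line at no change. All 9 intervals cross the dashed line, and that of Plcb3 ends at 101%.

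Because different probe sets cannot be set against each other by level, isoforms of one role were compared by how their gap within an array changed with genotype, over 10 pairs of genes. The widest change was that of Plcb1 against Plcb3, a shift of 0.26 toward Plcb1 in knockout. It restates the differences of these genes given above. Only in this pair of the 10 did the groups not overlap, beside 10.9% of all genes, and the pairs share genes. Its exact two-sided permutation p was 0.1, the lowest possible with 3 samples in each group, and 0.75 after Benjamini-Hochberg adjustment over the 10 pairs. No pair could therefore fall under 0.05 in this test. Plcb1 against Plcb4 shifted by 0.18 (exact permutation p 0.3), and Plcb2 against Plcb3 by 0.18 (exact permutation p 0.2), with overlapping groups. The pairs among the protein kinases C shifted by -0.07 to 0.01, with exact permutation p-values of 0.3 to 0.9.

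The 3 protein kinase C genes had mean differences of 0.01 to 0.08, all higher in knockout and all with overlapping groups. Prkce, an isoform that answers to diacylglycerol without needing calcium, was measured by probe set 17340177. Its signals were 10.68, 10.59 and 10.64 in wild type and 10.80, 10.70 and 10.66 in knockout. Knockout replicates 1 and 2 exceeded all wild-type samples, and knockout replicate 3 did not. The difference was 0.08 with an interval of -0.09 to 0.26, 106% of wild type (93.7% to 120%), at an adjusted limma p of 0.924, and it was 0.04 without knockout replicate 1.

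Prkca, a conventional isoform that needs calcium as well as diacylglycerol, was measured by probe set 17271168. It gave 9.34, 9.26 and 9.28 in wild type and 9.28, 9.34 and 9.33 in knockout, so that the groups lay over the same range. The difference of 0.03 had an interval of -0.14 to 0.19, 102% of wild type (90.8% to 114%), at an adjusted limma p of 0.975. Single samples left out moved it between 0.0087 (without wild-type replicate 2) and 0.05 (without wild-type replicate 1).

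Prkcb, the conventional isoform required for contextual fear learning in mice, was measured by probe set 17482766. It gave 10.48, 10.36 and 10.33 in wild type and 10.54, 10.30 and 10.37 in knockout. Replicate 1 was the highest in both groups, and the labels do not say whether the numbers pair the samples. The difference of 0.01 had an interval of -0.19 to 0.22, 101% of wild type (87.4% to 117%), at an adjusted limma p of 0.991. Its sign turned when wild-type replicate 2 (-0.0013), wild-type replicate 3 (-0.01) or knockout replicate 1 (-0.05) was left out.

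**Figure D3:**
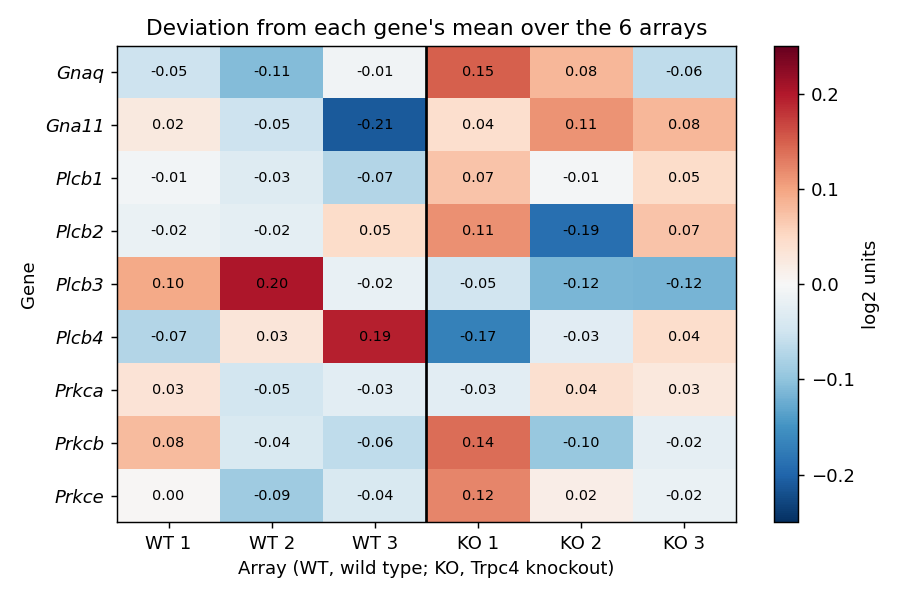
Deviation of each gene (rows) on each array (columns) from that gene's mean over the 6 arrays, in log2 units, with red above and blue below the mean. Gna11 is lowest in wild-type replicate 3 (-0.21), Plcb3 highest in wild-type replicate 2 (0.20), and knockout replicate 1 is the highest array for 5 of the 9 genes.

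The genes did not vary together as one block across the arrays. Knockout replicate 1 held the highest value of 5 genes (Gnaq, Plcb1, Plcb2, Prkcb and Prkce) and the lowest of Plcb4. Of the 36 pairs of genes, 21 had a positive Pearson's r over the 6 arrays, given here as a description, since all genes share the arrays and their normalization. The highest was that of Gnaq and Prkce (r 0.89, Spearman's rho 0.83). The lowest was that of the neighbouring genes Plcb1 and Plcb4 (r -0.77, rho -0.60). Among 12977 genes with signals above the median, the gene most like each member over the 6 arrays reached an r of 0.98 to 0.99. For the alpha subunits and Plcb3, named here of the 9, it was Trmt1l (Gna11), Ikbkb (Gnaq) and Aldh3a2 (Plcb3, the lowest r of the 9). With so few arrays likeness of this degree is common: between 57 and 240 genes reached an r above 0.9 with each of the 9.

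Promoter windows of 300 bases, from 250 before to 50 after the start of transcription, were available in RefSeq (GRCm38.p6) for 8 of the 9 genes. No such window was found for Prkce. The letters GGGCGG, the core of the GC box bound by Sp1-type factors, were found on either strand in 8 of the 9 windows of these genes, against 35.7% of 32851 windows of the same length. The window without it was the second one of Plcb4, at 44.3% GC. The other 8 had over 60% GC, as did 9410 of all windows, and 81.0% of those held the letters. The cAMP response element TGACGTCA (1.79% of all windows) was in 0 of the 8 genes, the TATA box letters TATAAA (13.6%) in 0, and CCAAT (37.4%) in 1, Gna11. These are matches of letters on both strands and not measured binding. Shown are the genes with the largest differences in each direction and the dim Plcb2, with capitals marking GGGCGG and CCAAT on either strand.
Gna11 (chr10:81545113-81545412, minus strand): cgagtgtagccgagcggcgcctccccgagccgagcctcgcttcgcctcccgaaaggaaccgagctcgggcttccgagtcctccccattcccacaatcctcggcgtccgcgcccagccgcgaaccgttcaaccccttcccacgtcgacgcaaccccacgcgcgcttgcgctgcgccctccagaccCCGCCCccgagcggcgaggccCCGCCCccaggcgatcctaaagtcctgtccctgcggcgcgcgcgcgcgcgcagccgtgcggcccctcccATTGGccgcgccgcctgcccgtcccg
Plcb3 (chr19:6969765-6970064, minus strand): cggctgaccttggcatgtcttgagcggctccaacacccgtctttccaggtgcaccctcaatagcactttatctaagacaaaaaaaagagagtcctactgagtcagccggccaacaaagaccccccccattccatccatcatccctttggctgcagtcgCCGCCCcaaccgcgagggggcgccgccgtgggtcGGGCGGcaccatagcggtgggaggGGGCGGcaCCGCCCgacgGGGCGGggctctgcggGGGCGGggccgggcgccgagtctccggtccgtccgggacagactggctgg
Plcb2 (chr2:118728389-118728688, minus strand): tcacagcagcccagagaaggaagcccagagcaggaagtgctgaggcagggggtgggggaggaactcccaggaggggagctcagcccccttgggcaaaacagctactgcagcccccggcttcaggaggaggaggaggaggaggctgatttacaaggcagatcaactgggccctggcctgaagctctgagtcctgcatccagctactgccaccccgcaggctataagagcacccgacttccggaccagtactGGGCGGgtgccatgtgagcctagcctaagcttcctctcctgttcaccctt
The windows of Gna11 and Plcb3 held 48 and 27 CpG dinucleotides and 2 and 6 matches of GGGCGG. That of Plcb2 held 5 CpG and 1 match, where the median of all windows was 7 CpG.

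Around the 9 genes, 76 further genes of the pathway were measured in 8 lists, and 0 passed the adjusted threshold in either direction (limma). At an unadjusted p under 0.05 there was 1, beside 5.75% of all genes, and 46 were higher and 30 lower in knockout (median 0.02). Groups did not overlap for 8 of the 76 (10.5%, with 3 higher and 5 lower), beside 10.9% of all genes. The 2 genes of smallest p in each list are named here, as values.

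Among 19 Gq-coupled receptor genes, 13 were higher and 6 lower (median 0.06). The ghrelin receptor gene Ghsr had signals of 5.41, 5.10 and 5.19 in wild type and 5.47, 5.59 and 5.41 in knockout. Its groups did not overlap, but the nearest values were only 0.00076 apart. The difference was 0.26, with an interval of 0.02 to 0.50, and the adjusted limma p was 0.853. The adrenergic receptor gene Adra1b, at a mean below the median of all probe sets, differed by -0.14, with groups that did not overlap. Of the receptors known to drive this route in hippocampus, the metabotropic glutamate receptor gene Grm5 differed by 0.0068 and the muscarinic receptor gene Chrm1 by 0.01, both with adjusted p 0.996 (limma).

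Among 6 other Gq class subunits and regulators, 4 were higher and 2 lower. Rgs4, which speeds GTP hydrolysis by alpha subunits, had signals of 8.37, 8.45 and 8.32 in wild type and 8.64, 8.50 and 8.47 in knockout. It was higher in every knockout sample, by 0.16 with an interval of -0.03 to 0.35. Ric8a, a chaperone of nascent alpha subunits, differed by 0.14 with overlapping groups. Among 9 other phospholipase C genes, 6 were higher and 3 lower, with Plch1 at -0.19 and Plcd1 at 0.13. Of 5 other protein kinase C genes, 4 were lower and 1 higher (median -0.14), with overlapping groups throughout. Prkcd, another calcium-independent isoform, strong in thalamus, differed by -0.20 with an interval of -0.49 to 0.10, and the atypical isoform gene Prkcz by -0.11.

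Of 9 genes for PIP2 supply, 6 were higher and 3 lower, with Cds1, which makes CDP-diacylglycerol, at -0.20 and the lipid transfer gene Pitpnm2 at 0.11. Of 7 genes for IP3 receptors and inositol phosphate enzymes, 3 were higher and 4 lower, all between -0.07 and 0.07, with the kinase gene Itpkb at -0.07 and the phosphatase gene Inpp5a at 0.07. Of 13 diacylglycerol enzymes and effectors, 10 were higher and 3 lower, with the vesicle priming gene Unc13a at 0.18 and the diacylglycerol kinase gene Dgke at -0.09. The groups of Unc13a overlapped, and those of Dgke did not, with the nearest values 1e-04 apart. Of 8 genes for PKC substrates, anchors and upstream enzymes, 3 were higher and 5 lower. Among them the PKC substrates Marcksl1 and Gap43 differed by 0.16 and -0.16, with overlapping groups.

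**Figure D4:**
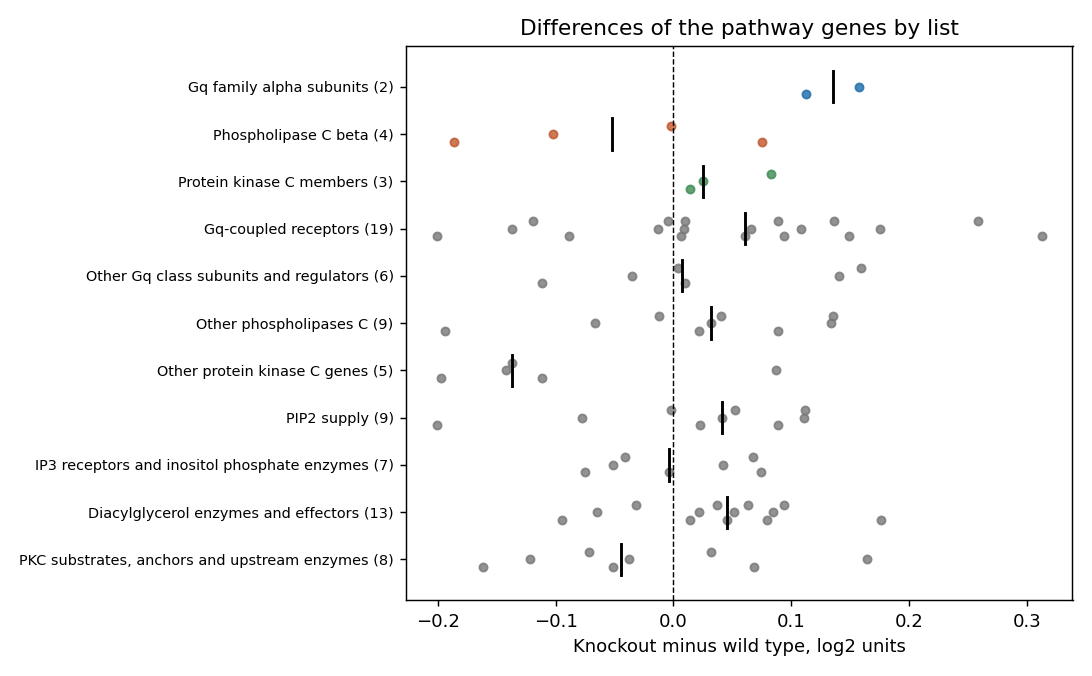
Knockout minus wild type in log2 units for each measured gene (points) of the 9 genes by role (coloured) and of the pathway lists (grey), with the number measured in brackets and a bar at each median. List medians lie between -0.14 and 0.13, on both sides of the dashed line at no difference.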

How the data were processed

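Total RNA was extracted with Trizol and labelled with biotin, per the labels' protocols. The authors deposited 1 table of log2 values for 6 arrays, computed by RMA in Affymetrix Power Tools according to notes from the submitters; their versions and the genome build are not stated in the labels or files used. RMA in general equalises the distributions between arrays, so a shift common to most genes would be hidden, and the number of arrays limits the precision (median standard error of a difference 0.0997).

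Of 41345 probe sets, 23521 named 1 gene in a platform annotation, which can be old, 1814 named more than 1, and 16010 were unnamed there. The probe set of highest mean stood for each gene. The genotypes were compared in limma 3.58.1 (R 4.3.3) in a model of genotype alone, with p-values adjusted by Benjamini-Hochberg over 22180 genes. The fit was tested on simulated data with added changes larger than the differences of the 9 genes, so detection of changes as small as theirs was not tested. Gene numbers of all 9 members were found in RefSeq with the same symbol. Exact permutation tests were two-sided. Members and lists were chosen with earlier results of these data known. Named genes are the 9, the paralogs Gna14, Gna15 and Prkcd, and the 2 smallest p-values per pathway list. Grm5 and Chrm1 were named after their values were seen, and the comparison of isoform pairs was added later. Marker lists for astrocytes (4 of 10 higher) and endothelial and mural cells (3 of 12 higher) were also read. The fit was repeated with array weights, with a replicate block, with quantile normalization or median centring, with trend and robust eBayes, without dim probe sets, with averaged probe sets, at other thresholds and without each sample. Plots were made in matplotlib 3.10.9 (Python 3.11.15).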

Additional observations from a re-analysis of the deposited data

How the results depend on the processing

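Under the 13 alternative fits none of the 9 genes passed the adjusted threshold. All 9 were tested in 12 fits, and 8, without the dim Plcb2, in the fit on genes above the median of all probe sets. The lowest adjusted limma p of the 9 was 0.709 (Plcb3). Gnaq, Gna11, Plcb1, Plcb3, Plcb4, Prkca and Prkce kept their direction throughout. Leaving out single samples turned that of Plcb2 (-0.060 to 0.091, of which 0.020 without wild-type replicate 3 and 0.091 without knockout replicate 2) and of Prkcb (-0.052 to 0.065, of which -0.0013 without wild-type replicate 2, -0.014 without wild-type replicate 3 and -0.052 without knockout replicate 1). The count of 0 of the 9 genes at an unadjusted p under 0.05 became 1 with quantile normalization (Plcb3, beside 5.87% of all genes), with trend and robust variance (Gna11, 6.22%) and, of 8 tested, with genes above the median of all probe sets (Plcb3, 6.94%). It was 0 to 1 without single samples (Plcb3, without wild-type replicate 3, 4.90%). The count of 3 genes with groups apart was 2 with median centring (10.7% of all genes) and 4 with quantile normalization (11.1%). It was 3 to 5 without single samples, beside 19.3% to 23.7% of all genes, and 5 without knockout replicate 3 (21.8%). Their median difference was 0.0087 to 0.091 without single samples. The number of genes called, 0, became 1 with trend and robust variance (Trpc4) and was 0 to 1 without single samples (Rps13, without knockout replicate 1); 1276 genes had an unadjusted p under 0.05. The labels do not say whether the replicate numbers pair the samples. Correlations of deviations between samples of the same number were 0.07, 0.03 and -0.0038, which cannot settle this. With the replicate block 0 genes were called and 0 of the 9 had an unadjusted p under 0.05. Signal over background was not used here.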
